A study of Homo sapiens with 13 samples.

Results

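The 10 glutamate receptor genes described here, *GRIA1*, *GRIA2*, *GRIA4*, *GRIN1*, *GRIN2D*, *GRIN3A*, *GRIK2*, *GRIK5*, *GRM2* and *GRM8*, were taken by symbol from the 56831 genes measured by RNA-seq in the small cell lung cancer (SCLC) lines H82 and H146. The 4 groups were H82 without treatment (3 libraries), H82 under FHD-286 (3 libraries), H146 without treatment (3 libraries) and H146 under FHD-286 (4 libraries). H82 belongs to the neuroendocrine subtype led by the transcription factor NEUROD1 and H146 to another neuroendocrine subtype, and both are labelled as wild type in genotype. FHD-286 is an allosteric inhibitor of SMARCA2 and SMARCA4, the ATPases that drive the SWI/SNF (BAF) chromatin remodelling complexes, and it was given at 100 nM for 14 days with regular renewal. The labels name no treatment, and no vehicle, for the untreated cells. Each group is a culture of 1 established line at 1 dose and 1 time, and nothing in the labels says that the libraries came from separate cultures, so p-values measure only the spread between these libraries, which may be technical.

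Glutamate receptors are the sensors of the main excitatory transmitter of the brain. AMPA receptors (*GRIA* genes), kainate receptors (*GRIK* genes) and NMDA receptors (*GRIN* genes) are cation channels assembled from 4 subunits, whereas metabotropic receptors (*GRM* genes) signal through G proteins. A GluA2 subunit, encoded by *GRIA2* and changed by RNA editing at its pore, makes an AMPA receptor nearly impermeable to calcium. GluN1, encoded by *GRIN1*, is the obligatory subunit of NMDA receptors, and *GRM2* and *GRM8* encode receptors that lower cyclic AMP and act mainly as presynaptic brakes on transmitter release. SCLC cells of the neuroendocrine type express many neuronal genes, and the comparison of treated with untreated cells asks how this neuronal programme depends on SMARCA4 and SMARCA2.

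The stretches of 250 bases before the start site are shown for the 4 members with the largest called changes, *GRM2* and *GRIK5*, which fell in H82, and *GRIA4* and *GRM8*, which rose in H146. They come from RefSeq on GRCh38.p14, where 9 of the 10 members were matched by symbol (not *GRIN1*), and run 5′ to 3′ on the strand of the gene. Capitals mark the only matches to the motifs searched.
GRM2 (chr3:51706818-51707067, plus strand): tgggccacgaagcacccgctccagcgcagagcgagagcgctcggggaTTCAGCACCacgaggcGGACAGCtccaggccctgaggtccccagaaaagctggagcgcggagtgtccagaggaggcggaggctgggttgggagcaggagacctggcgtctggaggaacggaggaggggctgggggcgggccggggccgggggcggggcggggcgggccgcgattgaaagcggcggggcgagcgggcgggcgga
GRIK5 (chr19:42070207-42070456, minus strand): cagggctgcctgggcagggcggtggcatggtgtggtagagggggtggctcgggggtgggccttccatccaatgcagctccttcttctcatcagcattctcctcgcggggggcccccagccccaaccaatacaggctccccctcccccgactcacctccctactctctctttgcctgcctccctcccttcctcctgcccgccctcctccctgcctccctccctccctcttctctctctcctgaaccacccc
GRIA4 (chr11:105610456-105610705, plus strand): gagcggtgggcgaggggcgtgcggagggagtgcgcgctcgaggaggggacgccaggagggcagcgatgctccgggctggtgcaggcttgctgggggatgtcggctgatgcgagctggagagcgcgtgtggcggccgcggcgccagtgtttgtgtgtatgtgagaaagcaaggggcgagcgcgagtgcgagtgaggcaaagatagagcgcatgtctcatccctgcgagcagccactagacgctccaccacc
GRM8 (chr7:127252942-127253191, minus strand): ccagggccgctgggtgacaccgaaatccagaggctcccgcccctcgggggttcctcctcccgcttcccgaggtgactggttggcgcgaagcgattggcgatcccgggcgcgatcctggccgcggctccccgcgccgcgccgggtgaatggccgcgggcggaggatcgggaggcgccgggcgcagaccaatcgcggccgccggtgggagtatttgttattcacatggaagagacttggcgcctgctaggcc
Each RefSeq window, from 250 bases before to 50 bases after the start, was searched on both strands for parts of the RE1 element bound by the repressor REST, TTCAGCACC and GGACAGC, and for the E-boxes CAGCTG and CAGATG, to which basic helix-loop-helix factors bind. Among the 9 members with a window, only *GRM2* held an exact match. The search covered the first RefSeq entry of each gene, so other start sites, near matches and *GRIN1* were not searched. The *GRM2* window carried TTCAGCACC at 203 bases and GGACAGC at 187 bases before the start site, in order and with 7 bases between them (chr3:51706865-51706887). Among the windows of 27305 genes, TTCAGCACC was present in 0.403% and GGACAGC in 6.11%. Both in order and at most 20 bases apart were present in 10 windows (0.0366%), a spacing limit that was set after the *GRM2* window had been read. The E-boxes CAGCTG and CAGATG were present in 17.7% and 14.8% of the windows and in none of the 9 members. A match is a run of letters and not a shown binding site, and the motifs do not overlap each other. The gap of 7 bases was not compared with the spacing of the 2 parts within the RE1 element.

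Levels are given as TPM, a unit in which reads are corrected for transcript length and every library is scaled to the same sum, so that genes can be compared with each other. The deposited TPM keep no read totals, so depth per library is unknown and precision rests on the spread between libraries. From 21227 to 21772 genes reached 1 TPM in untreated H82 and from 15554 to 16633 in treated H82, against 17476 to 17965 in untreated and 18778 to 19309 in treated H146. The mitochondrial share of a library ran from 22.1% to 24.1% without and from 12.3% to 14.9% with FHD-286 in H82, and from 7.56% to 8.86% without it in H146. Treated H146 replicates 1 to 4 had shares of 11.4%, 7.09%, 6.45% and 3.82%. *NEUROD1* measured 224 to 234 TPM in untreated H82 and 0.262 to 0.521 in untreated H146, as the subtype of each line has it. Treated H82 replicate 2 stood apart: *INSM1*, a neuroendocrine transcription factor gene, measured 296 TPM there, against 32.1 and 33.9 in the other treated H82 libraries, and the epithelial gene *EPCAM* 32.8 against 3.08 and 1.11. A list made after the data were seen held 117 genes at 20 TPM or more in every H146 library and at most 0.5 TPM in untreated H82. Of these, 78 reached 1 TPM in treated H82 replicate 2, 41 in replicate 1 and 29 in replicate 3. No untreated H82 library could hold any of them at 1 TPM, because of how the list was made. The median of the listed genes in treated H82 replicate 2 was 4.09% of the level in treated H146. The 4 epithelial markers summed to 1.49 to 3.16 TPM in untreated and 8.02 to 63.4 TPM in treated H82, the 5 fibroblast markers to 0.912 to 1.84 and 7.05 to 33.9, and the 6 neuronal markers to 266 to 289 and 61.9 to 107. *STMN2* held most of the neuronal sum in untreated H82, with 169 to 182 TPM there and 2.43 to 33.0 TPM in treated H82. *ELAVL4* went the other way (2.64 to 3.53 TPM untreated, 7.81 to 10.1 TPM treated). Of the 5 neuronal markers tested in H82, 4 were called lower (45.5% of all genes) and 1 higher (13.1%). In H146 the epithelial sum was 1353 to 1377 TPM untreated and 522 to 589 treated, the fibroblast sum 6.68 to 8.59 and 16.6 to 32.0, and the neuronal sum 853 to 911 and 559 to 1106. Leukocyte markers summed to 2.34 to 18.0 TPM and glial markers to 7.30 to 23.7 TPM over the 13 libraries, with *COL3A1* at 0 in untreated H82 and *CD3E* at 0 in every H82 library. The part of these differences in the results below was not tested, and in bulk RNA fewer cells of a type and less RNA per cell cannot be told apart.

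In H82, 4 of the 10 members fell under FHD-286: *GRM2*, *GRIK5*, *GRIN2D* and *GRIA1*. None rose, *GRIN1* was tested without passing, and the other 5 stayed below the filter (1 TPM or more in 3 or more of the line's libraries). Over all 19770 genes tested in H82, 45.5% fell and 13.1% rose by limma with Benjamini-Hochberg adjustment at 0.05, and the median log2 fold change was -0.56, beside which the members' falls have to be read. *GRM2* passed the filter only through its untreated libraries. In H146, *GRIA4* and *GRM8* rose, 6 members were tested without passing and 2 were below the filter, while 32.5% of the 19585 genes tested rose and 15.5% fell, with a median of 0.25. Scaling mattered for several members. When the libraries were rescaled by the median of ratios, the medians of all genes moved to -0.14 in H82 and -0.02 in H146, the calls over all genes from 8996 lower and 2588 higher to 6499 and 4793 in H82, and from 3033 and 6356 to 4917 and 4165 in H146. With that scaling *GRM2* and *GRIK5* remained lower in H82 (background 32.9% lower and 24.2% higher), *GRIA4* and *GRM8* remained higher in H146 (background 21.3%), and *GRIN1*, *GRIK5* and *GRM2* became lower in H146 (background 25.1%).

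**Figure D1:**
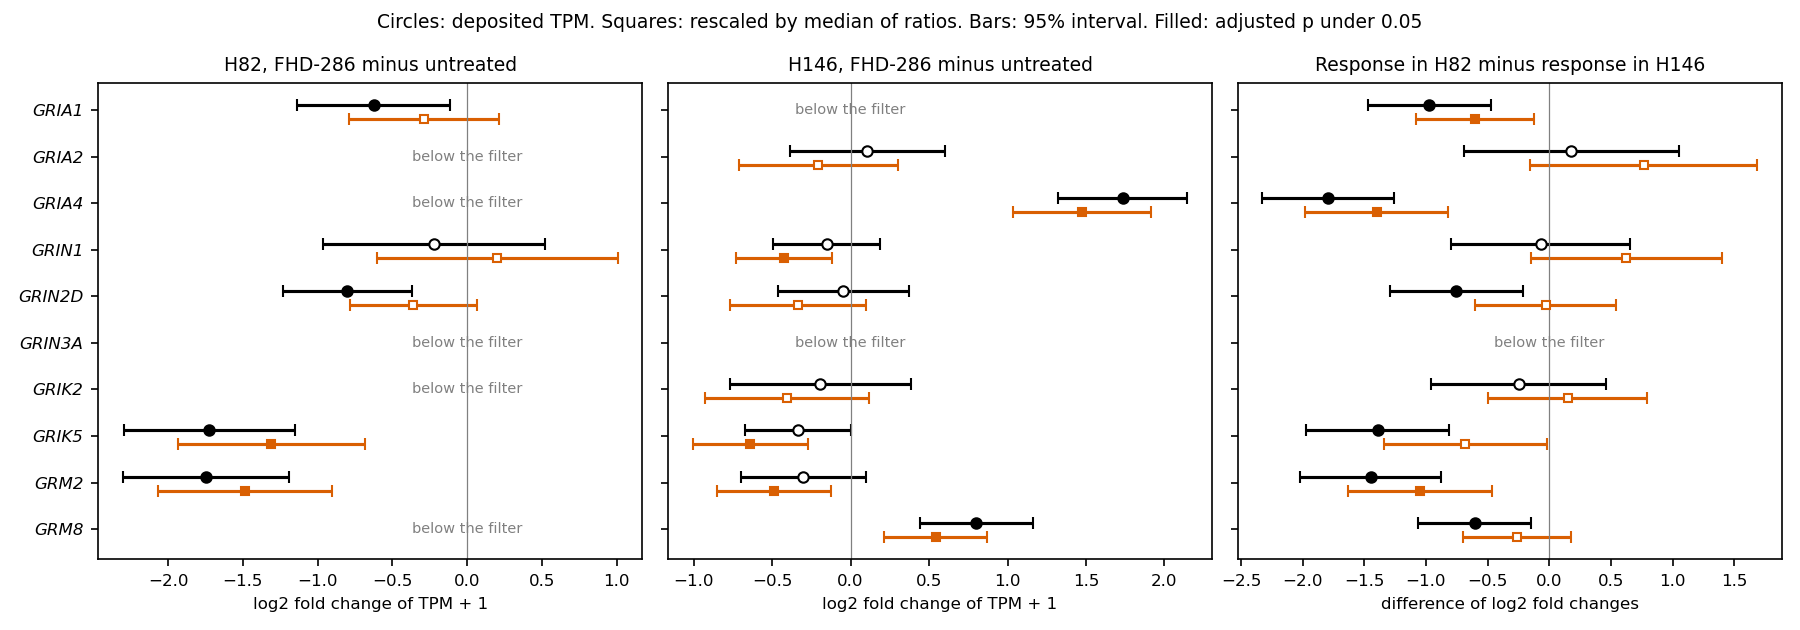
Log2 fold change of TPM + 1 under FHD-286 for each member in H82 (left) and H146 (middle), and the difference between the lines (right), with 95% intervals. Circles use the deposited TPM and squares TPM rescaled by the median of ratios, filled where the adjusted p was under 0.05, and *GRM2* and *GRIK5* in H82 and *GRIA4* and *GRM8* in H146 are filled under both.

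*GRIA4*, the gene of the AMPA subunit GluA4 (hg38 chromosome 11, 105609535 to 105982090, plus strand), showed the largest rise among the members tested. In H146 it measured 2.94, 2.69 and 2.45 TPM untreated and 12.5, 14.1, 9.54 and 9.62 TPM under FHD-286. All 4 treated libraries lay above all 3 untreated ones, and the means of 2.69 ± 0.244 (SD, n = 3) and 11.4 ± 2.23 (SD, n = 4) differed 4.24-fold. On the log2(TPM + 1) scale the rise was 1.74 (SE 0.18, adjusted p = 0.000197, limma). In H82 *GRIA4* stayed at 0.323, 0.437 and 0.183 TPM untreated and 0.296, 0.262 and 0.215 TPM treated, and these ranges overlapped (exact permutation test, two-sided, p = 0.6, n = 3 and 3).

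*GRIA2*, encoding GluA2 (hg38 chromosome 4, 157204182 to 157387146, plus strand), had the highest mean of the members in H146 and lay near 1 TPM in H82. Its untreated H146 libraries measured 39.7, 39.1 and 27.5 TPM and its treated ones 42.3, 49.4, 34.3 and 28.01 TPM. The groups overlapped, with a log2 fold change of 0.11 (95% interval -0.39 to 0.60, adjusted p = 0.706, limma) whose sign turned with the median of ratios (-0.20). The H82 libraries measured 0.922, 1.28 and 0.687 TPM untreated and 0.962, 2.81 and 0.785 TPM treated. The single treated value above the untreated range was that of replicate 2, the library in which *INSM1* and *EPCAM* were also high, and the difference did not pass (exact permutation test, two-sided, p = 0.6, n = 3 and 3).

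*GRIA1*, encoding GluA1 (hg38 chromosome 5, 153489615 to 153813869, plus strand), was the leading AMPA subunit gene of untreated H82, while in treated H82 its libraries overlapped with those of *GRIA2*. It measured 3.31, 3.43 and 2.52 TPM in untreated and 1.19, 1.82 and 1.97 TPM in treated H82. The groups did not overlap, and the log2 fold change was -0.63 (SE 0.22, adjusted p = 0.0415, limma), close to the median of all genes. The call was lost without any 1 of the 6 libraries (adjusted p 0.0568 to 0.182) and with the median of ratios (log2 fold change -0.29, adjusted p = 0.276), and the sign turned under quantile normalization (0.39). In H146 *GRIA1* was listed at 0.0253, 0.0126 and 0.0114 TPM untreated and at 0.446, 0.321, 0.295 and 0.131 TPM treated. Every treated library lay above every untreated one, at levels below 1 TPM throughout. An exact permutation test (two-sided, n = 3 and 4) gave p = 0.0571 on log2(TPM + 1) and p = 0.0286, the smallest this design allows, on log2(TPM + 0.1), and the adjusted p over the 7 such tests of members below the filter was 0.28 to 0.6.

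**Figure D2:**
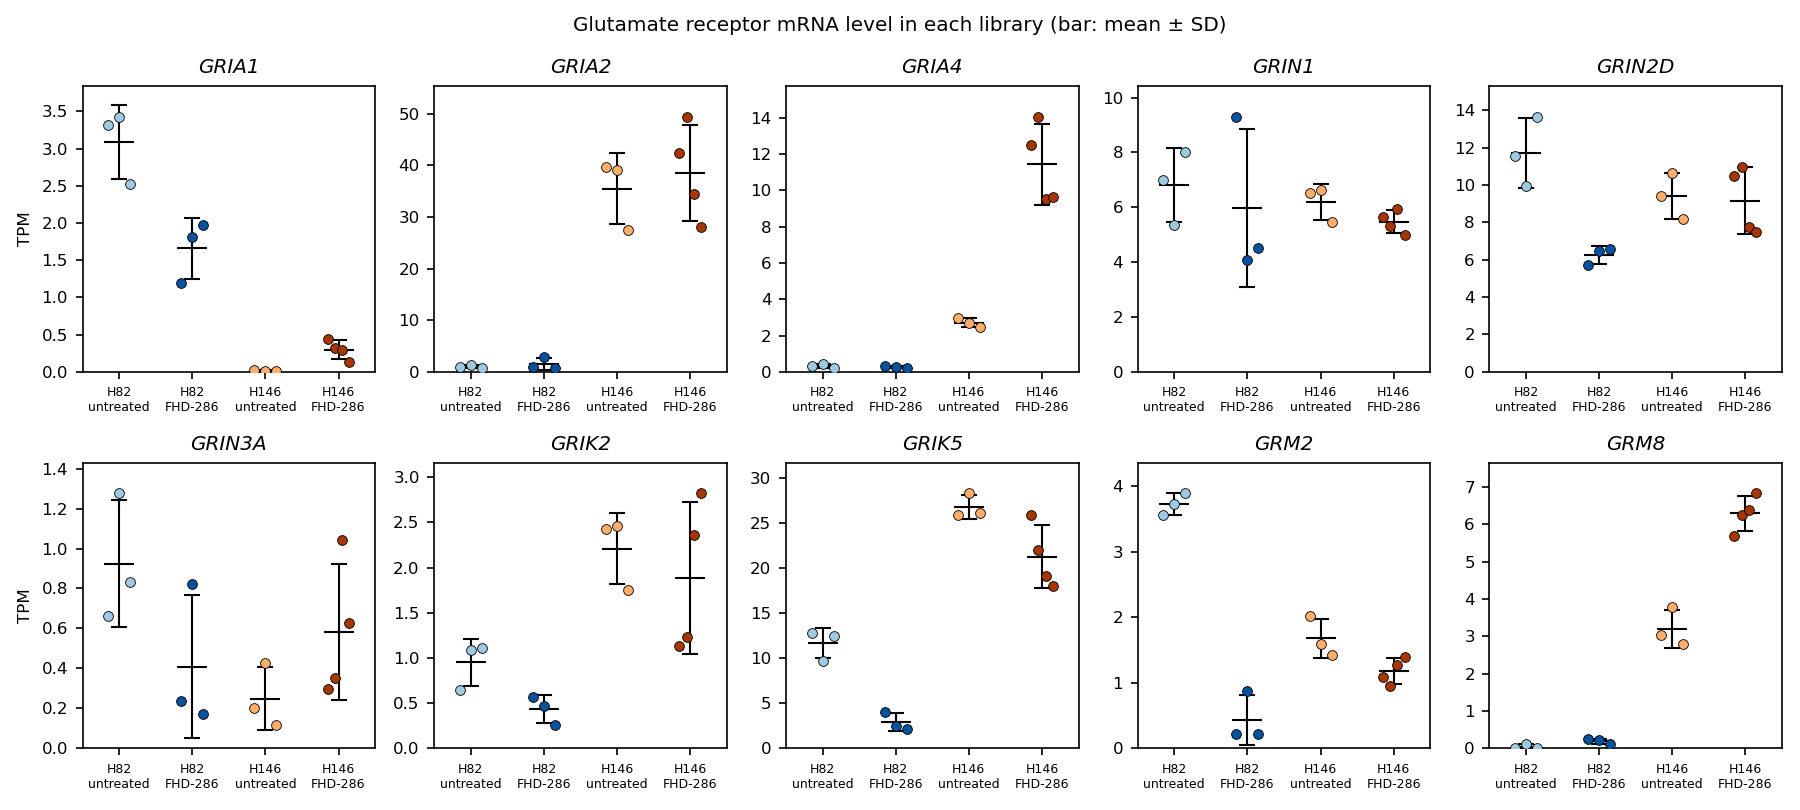
TPM of the 10 members in each library of H82 and H146, untreated and under FHD-286, as points with the mean and SD as bars (n = 3, 3, 3 and 4), each panel with its own axis from 0. The 4 treated H146 points of *GRIA4* (9.54 to 14.1 TPM) and *GRM8* (5.70 to 6.84 TPM) and the 3 treated H82 points of *GRIK5* (2.16 to 4.05 TPM) and *GRM2* (0.216 to 0.880 TPM) lie apart from the untreated points of the same line.

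*GRIK5*, encoding the kainate subunit GluK5, which raises agonist affinity but needs partner subunits to form a channel (hg38 chromosome 19, 41998321 to 42070206, minus strand), fell in H82. It measured 12.8, 9.72 and 12.5 TPM untreated and 4.05, 2.46 and 2.16 TPM treated. The groups did not overlap, the untreated mean was 4.03-fold higher, and the log2 fold change was -1.72 (SE 0.24, adjusted p = 0.00111, limma). Without treated replicate 2 it was -1.65. In H146 *GRIK5* measured 25.93, 28.3 and 26.2 TPM untreated and 25.88, 22.02, 19.1 and 18.0 TPM treated. The groups did not overlap, but the highest treated library lay only just below the lowest untreated one. The log2 fold change there was -0.33 (95% interval -0.67 to 0.01, adjusted p = 0.0943, limma). It passed without treated replicate 1 (-0.43, adjusted p = 0.0404) and with the median of ratios (-0.64, adjusted p = 0.0125).

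*GRIK2* encodes GluK2, a kainate subunit that can form channels by itself (hg38 chromosome 6, 100962701 to 102081622, plus strand). In H82 it measured 0.650, 1.09 and 1.11 TPM untreated and 0.567, 0.470 and 0.259 TPM treated. The groups did not overlap, and the exact permutation test gave p = 0.1 (two-sided, n = 3 and 3), the smallest p that 3 against 3 libraries allow. In H146 it measured 2.42, 2.46 and 1.75 TPM untreated and 1.13, 1.23, 2.36 and 2.82 TPM treated. Treated replicates 1 and 2 lay below and replicate 4 above all untreated libraries, and the log2 fold change was -0.19 (95% interval -0.77 to 0.38, adjusted p = 0.554, limma).

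Among the NMDA receptor genes, *GRIN1* (hg38 chromosome 9, 137138346 to 137168756, plus strand) lay between 4.08 and 9.30 TPM in all 13 libraries. It measured 7.01, 5.36 and 8.03 TPM in untreated H82 and 9.30, 4.08 and 4.53 TPM in treated H82, with treated replicate 1 the highest of the 6. The log2 fold change was -0.22 (95% interval -0.96 to 0.52, adjusted p = 0.567, limma) and turned to 0.20 with the median of ratios. In H146 it measured 6.53, 6.64 and 5.45 TPM untreated and 5.65, 5.33, 5.95 and 4.98 TPM treated, a log2 fold change of -0.15 (95% interval -0.49 to 0.19, adjusted p = 0.428, limma) that passed as a fall with the median of ratios (-0.42, adjusted p = 0.0309).

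*GRIN2D*, encoding the slowly deactivating subunit GluN2D that is best known from the developing nervous system (hg38 chromosome 19, 48393668 to 48444931, plus strand), measured 11.6, 9.93 and 13.7 TPM in untreated and 5.72, 6.49 and 6.56 TPM in treated H82. The groups did not overlap and the log2 fold change was -0.80 (SE 0.18, adjusted p = 0.00811, limma). With the median of ratios it was -0.36 (adjusted p = 0.125), so its call depended on the scaling. In H146 *GRIN2D* measured 9.44, 10.6 and 8.18 TPM untreated and 10.5, 10.96, 7.73 and 7.49 TPM treated, which overlapped (log2 fold change -0.05, 95% interval -0.46 to 0.37, adjusted p = 0.852, limma). *GRIN3A*, encoding GluN3A, a subunit that binds glycine and lowers calcium permeability (hg38 chromosome 9, 101569352 to 101738647, minus strand), was low in both lines. It measured 0.661, 1.28 and 0.832 TPM in untreated and 0.235, 0.820 and 0.173 TPM in treated H82 (exact permutation test, two-sided, p = 0.2, n = 3 and 3). The H146 libraries measured 0.202, 0.425 and 0.118 TPM untreated and 0.298, 0.354, 1.04 and 0.629 TPM treated (exact permutation test, two-sided, p = 0.171, n = 3 and 4). Its groups overlapped in each line.

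*GRM2*, encoding mGlu2 (hg38 chromosome 3, 51707068 to 51718613, plus strand), had the largest fall among the members tested. In H82 it measured 3.57, 3.73 and 3.89 TPM untreated and 0.219, 0.880 and 0.216 TPM treated. The treated libraries lay far below the narrow untreated range, and the means of 3.73 ± 0.164 (SD, n = 3) and 0.438 ± 0.383 (SD, n = 3) differed 8.51-fold. The log2 fold change was -1.75 (SE 0.23, adjusted p = 0.000934, limma) and -1.96 without treated replicate 2, whose 0.880 TPM was the highest treated value. Without any 1 untreated library *GRM2* no longer met the filter and was not tested. In H146 it measured 2.01, 1.60 and 1.43 TPM untreated and 1.08, 0.945, 1.27 and 1.40 TPM treated. These groups did not overlap either, but the log2 fold change of -0.30 (95% interval -0.70 to 0.10, adjusted p = 0.185, limma) passed only with the median of ratios (-0.49, adjusted p = 0.0352) and with quantile normalization (-0.55, adjusted p = 0.0287).

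*GRM8*, encoding mGlu8 (hg38 chromosome 7, 126438598 to 127253093, minus strand), rose in H146. It measured 3.03, 3.77 and 2.79 TPM untreated and 5.70, 6.25, 6.40 and 6.84 TPM treated. Every treated library lay above every untreated one, the means of 3.20 ± 0.514 (SD, n = 3) and 6.30 ± 0.469 (SD, n = 4) differed 1.97-fold, and the log2 fold change was 0.80 (SE 0.16, adjusted p = 0.00404, limma). In H82 it was listed at 0, 0.1205 and 0 TPM untreated and at 0.241, 0.215 and 0.119 TPM treated (exact permutation test, two-sided, p = 0.2, n = 3 and 3). *GRM8* shares exon bases with ENSG00000287568 on the opposite strand in GENCODE release 44, and whether reads were counted by strand is not given in the sources used here, so reads of both genes cannot be told apart. None of the other 9 members shares exon bases with another gene there.

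Shares within a receptor class do not depend on the scaling between libraries. In H146, *GRIA4* made up 6.45% to 8.17% of the summed TPM of the 4 AMPA subunit genes in untreated libraries and 21.5% to 25.4% in treated ones, and *GRIA2* 91.6% to 93.5% and 74.1% to 77.5%. Neither pair of ranges overlapped: the AMPA transcripts of untreated H146 were nearly all *GRIA2*, and those of treated H146 a mix with *GRIA4*. The class sum was 38.1 ± 7.08 TPM (SD, n = 3) untreated and 50.4 ± 11.7 TPM (SD, n = 4) treated. In H82, *GRIA1* held 64.7% to 74.3% of the class untreated and 31.6% to 56.3% treated, *GRIA4* 5.39% to 8.24% and 4.55% to 9.75%, and *GRIA2* 20.1% to 24.1% and 22.4% to 48.9%, at a class sum of 4.43 ± 0.967 and 4.09 ± 1.45 TPM (SD, n = 3 each). *GRIA3* made up the remainder in treated H82, with 0.590, 0.856 and 0.531 TPM.

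The largest part of the kainate class was *GRIK3*, which is not among the 10 members, in H82 and in treated H146, and *GRIK5* in untreated H146. *GRIK3* held 83.3% to 84.5% of the class in untreated and 49.1% to 80.5% in treated H82, and 24.5% to 30.8% and 55.5% to 71.3% in H146. The TPM of *GRIK3* in H82 were 82.1, 75.6 and 84.0 untreated and 7.65, 16.0 and 18.7 treated, and in H146 13.4, 13.6 and 9.44 untreated and 49.9, 29.7, 52.7 and 52.5 treated. The gene thus moved in opposite directions in the lines, and the class sum was 96.1 ± 4.65 TPM without and 19.9 ± 3.95 TPM with FHD-286 in H82 (SD, n = 3 each), against 42.5 ± 3.61 (SD, n = 3) and 69.8 ± 11.1 TPM (SD, n = 4) in H146. *GRIK5* held 10.7% to 13.1% of the class in untreated and 9.29% to 26.0% in treated H82, and 59.8% to 67.8% and 24.4% to 41.2% in H146. The lower share in treated H146 stood beside a change of *GRIK5* itself that did not pass.

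The NMDA class in H82 summed to 23.4 ± 3.67 TPM without and 13.7 ± 2.82 TPM with FHD-286 (SD, n = 3 each), against 26.5 ± 2.23 (SD, n = 3) and 26.6 ± 1.29 TPM (SD, n = 4) in H146. *GRIN2D* held 47.3% to 51.9% of it in untreated H82 and 32.8% to 36.9% in untreated H146, where *GRIN2C* held a like share of 31.5% to 37.9%. Of the metabotropic receptors, *GRM8* held 28.5% to 31.7% of the class in untreated and 48.8% to 64.6% in treated H146, and *GRM4* 46.6% to 49.4% and 9.05% to 12.6%, at a class sum of 10.7 ± 1.25 (SD, n = 3) and 10.7 ± 0.822 TPM (SD, n = 4). In H82 the metabotropic sum was 11.9 ± 0.949 TPM without and 1.92 ± 1.56 TPM with FHD-286 (SD, n = 3 each). *GRM4* held 55.8% to 60.6% of it untreated and 21.2% to 57.3% treated, and *GRM2* 27.6% to 33.7% and 15.4% to 32.5%.

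**Figure D3:**
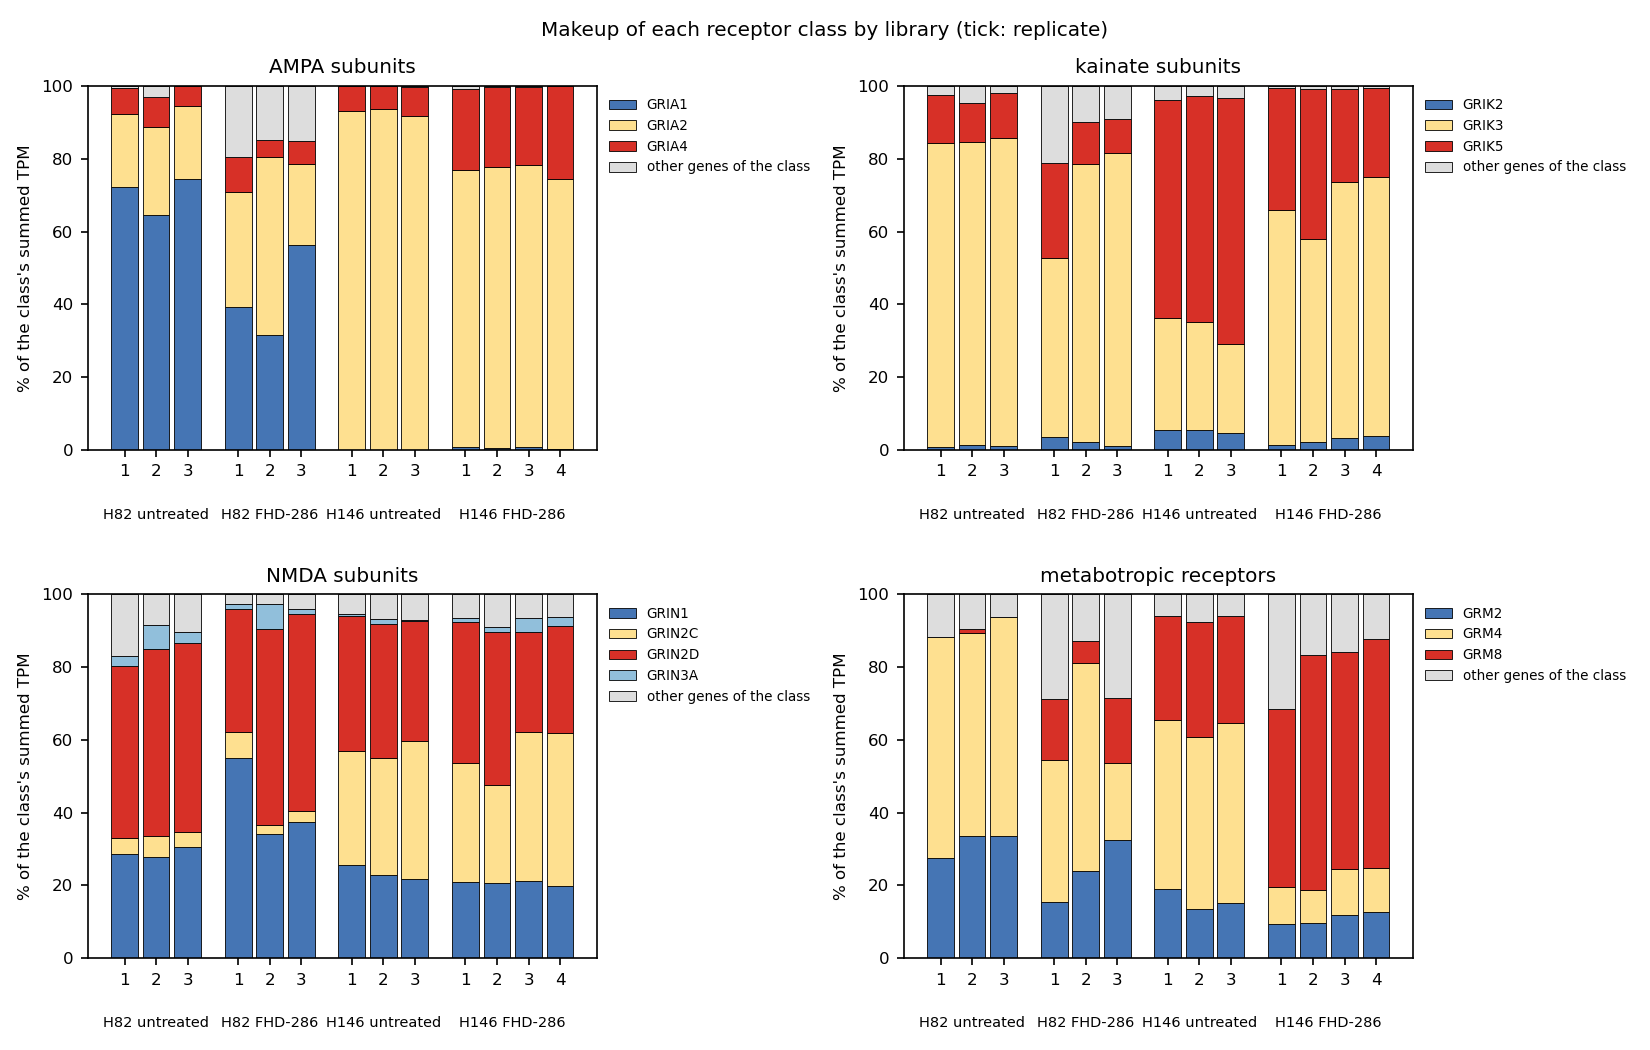
Share of each receptor class's summed TPM, in percent, taken by its main genes in each of the 13 libraries, with the replicate number under each bar. The *GRIA4* part of the AMPA bars is 6.45% to 8.17% in untreated and 21.5% to 25.4% in treated H146, and the *GRM8* part of the metabotropic bars of that line is 28.5% to 31.7% and 48.8% to 64.6%.

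Ordered by mean TPM, untreated H82 ran *GRIN2D* 11.7, *GRIK5* 11.7, *GRIN1* 6.80, *GRM2* 3.73, *GRIA1* 3.09, *GRIA2* 0.962, *GRIK2* 0.950, *GRIN3A* 0.923, *GRIA4* 0.314 and *GRM8* 0.0402. The libraries of *GRIN2D* and *GRIK5* overlapped, as did those of *GRIA2* with *GRIK2* and of *GRIK2* with *GRIN3A*, and all other neighbours were apart. Treated H82 ran *GRIN2D* 6.26, *GRIN1* 5.97, *GRIK5* 2.89, *GRIA1* 1.66, *GRIA2* 1.52, *GRM2* 0.438, *GRIK2* 0.432, *GRIN3A* 0.409, *GRIA4* 0.258 and *GRM8* 0.191, and of its neighbours only *GRIN1* with *GRIK5* and *GRIK5* with *GRIA1* were apart. Untreated H146 ran *GRIA2* 35.4, *GRIK5* 26.8, *GRIN2D* 9.42, *GRIN1* 6.21, *GRM8* 3.20, *GRIA4* 2.69, *GRIK2* 2.21, *GRM2* 1.68, *GRIN3A* 0.249 and *GRIA1* 0.0164. There *GRIA2* overlapped with *GRIK5*, and the neighbours from *GRM8* to *GRM2* overlapped in turn. Treated H146 ran *GRIA2* 38.5, *GRIK5* 21.3, *GRIA4* 11.4, *GRIN2D* 9.17, *GRM8* 6.30, *GRIN1* 5.48, *GRIK2* 1.88, *GRM2* 1.17, *GRIN3A* 0.581 and *GRIA1* 0.298, so that *GRIA4* moved above *GRIN2D*, *GRIN1* and *GRM8*, overlapping with *GRIN2D*. The 10 members of H82 together summed to 40.2 ± 3.55 TPM without and 20.03 ± 2.91 TPM with FHD-286 (SD, n = 3 each), and to 87.9 ± 10.6 (SD, n = 3) and 96.1 ± 14.5 TPM (SD, n = 4) in H146.

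Whether the responses of H82 and H146 differed was tested by a line-by-treatment interaction term over the 13 libraries. It passed for 6 members, all with the lower value in H82: *GRIA4* (-1.80), *GRM2* (-1.45), *GRIK5* (-1.39), *GRIA1* (-0.97), *GRIN2D* (-0.76) and *GRM8* (-0.61), as differences of log2 fold changes. It did not pass for *GRIA2*, *GRIN1* and *GRIK2*, and *GRIN3A* was below the filter. Over all 24374 genes tested, 46.0% were lower in the same sense and 13.3% higher, with a median difference of -0.75, so a lower value in H82 was the common direction. With the median of ratios the difference passed for *GRIA4* (-1.40, adjusted p = 0.000847), *GRM2* (-1.05, adjusted p = 0.00552) and *GRIA1* (-0.60, adjusted p = 0.0336, limma), beside a background of 30.8% lower and 25.5% higher, and no longer for *GRIK5* (-0.68, adjusted p = 0.0734), *GRIN2D* (-0.03, adjusted p = 0.927) or *GRM8* (-0.26, adjusted p = 0.284, limma). With quantile normalization it passed for *GRIA4* (-0.91, adjusted p = 0.00990) and for none of the other 5, *GRM2* (-0.40, adjusted p = 0.345) and *GRIK5* (-0.40, adjusted p = 0.227, limma) included. Under that scaling it passed with the higher value in H82 for *GRIA2* (1.27, adjusted p = 0.0271) and *GRIN1* (1.06, adjusted p = 0.0141, limma). Over all genes 6261 were then lower and 6142 higher. The value of *GRIA4* rests on its rise in H146, since its H82 level was below 0.5 TPM in every library. *GRIA1* lay at 0.0114 to 0.446 TPM in H146 and *GRM8* at 0 to 0.241 TPM in H82, below the filter of that line. Their differences thus rest in part on levels below 1 TPM. With the median of ratios the change of *GRIA1* in H82 alone did not pass (-0.29, adjusted p = 0.276, limma). The call of *GRIN2D* was lost without untreated replicate 3 of H82 (adjusted p = 0.0600) or of H146 (adjusted p = 0.0530, limma). The call of *GRM8* was lost without untreated replicate 2 or treated replicate 3 of H82 or untreated replicate 1 or 3 of H146 (adjusted p 0.0567 to 0.0679, limma), and its value turned to 0.17 (adjusted p = 0.783, limma) when 0.1 in place of 1 was added before the log.

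The genes most like the leading members were found by the root mean square difference of log2(TPM + 1) over the 13 libraries, each gene centred on its own mean, among the 15679 genes tested in both lines. For *GRM2* they were *USP37* (0.202), *FHOD3* (0.202) and *BTBD3* (0.212). *USP37*, a deubiquitinase gene, measured 20.4 ± 0.792 and 4.97 ± 0.905 TPM in untreated and treated H82 (SD, n = 3 each) and 8.70 ± 2.13 (SD, n = 3) and 8.87 ± 2.16 TPM (SD, n = 4) in H146. For *GRIA4* they were *GPR161* (0.253), *TAPBP* (0.258) and *EFNB2* (0.318). *TAPBP*, encoding the MHC class I loading factor tapasin, measured 4.72 ± 0.309 and 5.70 ± 1.58 TPM in H82 (SD, n = 3 each) and 20.2 ± 3.53 (SD, n = 3) and 54.5 ± 2.71 TPM (SD, n = 4) in H146.

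Of the 16 other receptor genes of the family, 5 were tested in H82, where 3 fell (45.5% of all genes) and none rose (13.1%). The median log2 fold change was -1.36, against -0.56 over all genes. In H146 7 were tested, where 3 fell (15.5% of all genes) and 2 rose (32.5%), with a median of 0.06 against 0.25. These include genes that met the filter through 1 group only and so had to differ: *GRIN3B*, 1 of the 3 falls in H82 and the gene at the median (1.42 to 3.92 TPM untreated, 0.211 to 0.428 treated), and 1 fall, *GRIK1* (1.13 to 1.57 and 0.212 to 0.531 TPM), and 1 rise in H146. The largest falls in H82 were *GRIK3* (-2.51, SE 0.30) and *GRM4* (-2.17, SE 0.37), the gene of a group III metabotropic receptor. *GRM4* fell in H146 too (-1.48, SE 0.17), with *GRID1* (-0.78, SE 0.16), while *GRIK3* (1.83, SE 0.23) was the leading rise. The interaction of *GRIK3* was -4.34 (SE 0.40, adjusted p = 4.53e-06, limma) and -3.57 with the median of ratios, a larger difference between the lines than that of any member.

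Of 17 auxiliary and assembly subunits, which set the trafficking and gating of the channels, 8 were tested in H82, with 4 lower (45.5% of all genes) and 1 higher (13.1%). In H146 12 were tested, with 1 lower (15.5% of all genes) and 4 higher (32.5%). Of these calls, 3 of the 4 lower in H82 and the 1 lower and 1 of the 4 higher in H146 met the filter through 1 group only, and without 1 untreated library 0 or 1 were lower in H82 and 0 in H146. In H82 *SHISA6*, encoding an AMPA receptor partner that keeps channels from desensitizing, fell by 2.69 (SE 0.19) and *CACNG5* by 1.28 (SE 0.18) on the log2 scale, while the cornichon gene *CNIH2* rose by 1.05 (SE 0.37, adjusted p = 0.0459, limma). In H146 *SHISA9* fell by 1.88 (SE 0.18), from 4.86, 4.93 and 3.40 TPM to 0.519, 0.503, 0.296 and 0.503 TPM. *CNIH3* (1.17, SE 0.17) and *SHISA7* (0.95, SE 0.17), also genes of AMPA receptor partners, rose there. *SHISA6*, *CACNG5* and *CNIH3* in H82 and *SHISA9* in H146 passed the filter through their untreated libraries and were not tested without any 1 of them, *CACNG7* in H146 (0.281 to 0.552 TPM untreated, 0.787 to 2.47 treated) passed it through its treated ones, and *CACNG5* lost its call under quantile normalization (-0.53, adjusted p = 0.0672, limma). *CNIH2* lost its call without 4 of the 6 libraries, treated replicate 2 among them (adjusted p up to 0.151, limma). With the median of ratios the counts were 2 lower (32.9% of all genes) and 1 higher (24.2%) in H82. In H146 they were 2 lower (25.1% of all genes) and 4 higher (21.3%).

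The 18 postsynaptic scaffold genes were mixed. In H82, 5 of the 12 tested fell (45.5% of all genes) and 1 rose (13.1%). The falls there were led by *DLG4* (-2.23, SE 0.25), encoding PSD-95, and *SHANK3* was higher (1.14, SE 0.18). In H146, 3 of the 14 tested fell (15.5% of all genes) and 5 rose (32.5%). The H146 count of falls moved with single libraries: it was 0 without any 1 untreated library, 1 without treated replicate 3 or 4 and 5 without treated replicate 2, while 3 to 6 rose across these fits, with 3 without untreated replicate 3. The rises in H82 numbered 0 without treated replicate 2 or 3 and 2 without treated replicate 1. *DLG4* fell by 1.08 (SE 0.39, adjusted p = 0.0476, limma) from 81.2, 78.4 and 79.3 TPM to 55.3, 67.6, 24.0 and 20.6 TPM, and *SHANK2* by 0.90 (SE 0.21). The call of *DLG4* in H146 was lost without 5 of the 7 libraries, each untreated one and treated replicates 3 and 4 (adjusted p up to 0.124, limma), and under quantile normalization (adjusted p = 0.0526, limma). Of the Homer genes, whose proteins link metabotropic receptors to calcium stores, 2 rose in H146: *HOMER1* by 2.03 (SE 0.19), from 7.25, 9.84 and 5.90 TPM to 38.4, 26.7, 33.95 and 36.9 TPM, and *HOMER2* by 1.08 (SE 0.16). *HOMER3* was tested there without passing (log2 fold change 0.66, adjusted p = 0.0955, limma). In H82 *HOMER2* fell (log2 fold change -1.47, SE 0.15), from 40.7, 38.1 and 36.4 TPM to 11.7, 14.0 and 14.2 TPM, while *HOMER1* and *HOMER3* did not pass. With the median of ratios 4 scaffold genes fell (32.9% of all genes) and 3 rose (24.2%) in H82. In H146 7 then fell (25.1% of all genes) and 2 rose (21.3%).

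Of 12 genes for making, loading and taking up glutamate, 7 were tested in H82, with 5 lower (45.5% of all genes) and none higher (13.1%). In H146 8 were tested, with 2 lower (15.5% of all genes) and 2 higher (32.5%), and without any 1 untreated library 1 was lower. The largest falls in H82 were *SLC17A7*, the vesicular glutamate transporter VGLUT1, from 25.4, 19.5 and 24.5 TPM to 1.85, 0.646 and 0.721 TPM (-3.58, SE 0.27), and *SLC1A2*, the plasma membrane transporter EAAT2, from 24.5, 28.4 and 22.8 TPM to 0.863, 1.40 and 1.47 TPM (-3.55, SE 0.20). In H146 *SLC1A2* (-1.20, SE 0.16) and the glutamine synthetase gene *GLUL* (-0.66, SE 0.11) fell, and *SLC1A1* (1.36, SE 0.23) and *SLC17A6*, encoding VGLUT2, rose (1.06, SE 0.26). With the median of ratios 4 fell (32.9% of all genes) and 1 rose (24.2%) in H82. In H146 4 then fell (25.1% of all genes) and 2 rose (21.3%). Both RNA editing genes fell in H82, *ADARB1*, whose enzyme edits the pore of GluA2, by 1.40 (SE 0.16) and *ADAR* by 0.77 (SE 0.25), whereas *ADAR* rose in H146 by 1.01 (SE 0.17). In H146 *ADARB1* was below the filter, at 0.105 to 0.174 TPM untreated and 0.434 to 0.875 TPM treated, ranges that did not overlap. *ADAR* lost its call in H82 with the median of ratios (-0.29, adjusted p = 0.302, limma) and without any 1 untreated library (adjusted p up to 0.102, limma), and editing itself was not measured. *SHANK3* in H82 passed the filter through its treated libraries, and *SHANK2* and *SLC1A2* in H146 through their untreated ones. These lists were chosen with earlier results of these data known, and their counts are descriptions beside the backgrounds given above.

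**Figure D4:**
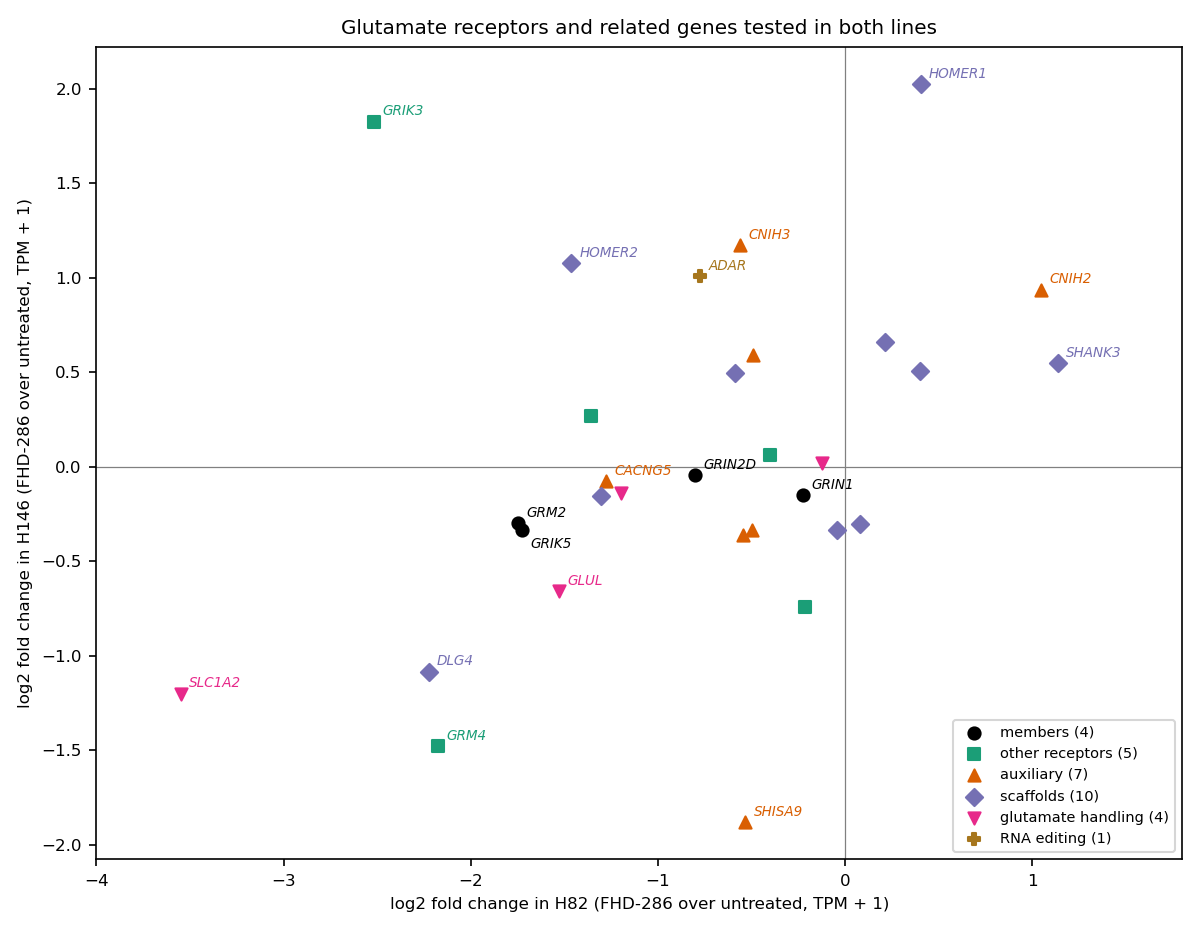
Log2 fold change under FHD-286 in H82 (horizontal) and in H146 (vertical), on the log2(TPM + 1) scale, for members and genes of the 5 related lists that were tested in both lines, one symbol per list with the number of genes in the key. *GRIK3* lies at the upper left (-2.51 and 1.83), *DLG4*, *SLC1A2* and *GRM4* at the lower left, and *GRIA4* and *GRM8* are not drawn because they were below the filter in H82.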

How the data were processed

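RNA was isolated and sequenced at a service provider. Per the labels and the methods, the authors trimmed reads with Trim Galore 0.4.4, aligned them to hg38 with STAR, counted them per gene with GENCODE release 28 and used DESeq2. The deposited tables, 1 per line, hold TPM as made by the authors; how gene length and strand were handled is not given in the sources used here. As TPM are not counts, DESeq2 could not be applied here.

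Each line was fitted with limma 3.58.1 in R 4.3.3 (lmFit, eBayes with trend) on log2(TPM + 1), treated against untreated, for genes at 1 TPM or more in at least 3 libraries of the line. Tests were two-sided, adjusted by Benjamini-Hochberg over all genes, with a threshold of 0.05. The lines were compared by an interaction over 13 libraries, for genes at 1 TPM or more in at least 3 of them. A fold change on this scale understates that of low genes. Members below the filter got exact permutation tests of mean log2(TPM + 1). The fits were checked on simulated data. Positions are from GENCODE release 44 on hg38 and promoters from RefSeq (first entry of each gene). Symbols turned into dates (29) affected no member. No libraries were identical.

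The named genes were all 10 members, the 2 largest called rises and falls of each related list per line, and the 3 genes most like the leading member of each line. *GRIA3*, *GRIN2C*, *GRIN3B*, *GRIK1*, *CACNG7*, *HOMER3*, *CNIH3*, *HOMER1* and *HOMER2* in H82, *ADARB1* in H146 and the interaction of *GRIK3* were named after their values were seen. So were the neuronal markers *STMN2* and *ELAVL4* in H82. A few genes that met these rules are not reported here. The members and lists were chosen with earlier results of these data known. Alternatives were a pseudocount of 0.1, no filter, a mean above 2 TPM, median of ratios, quantile normalization, a replicate block, eBayes without trend, and leaving out each library.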

Additional observations from a re-analysis of the deposited data

Results flagged for a closer look

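The response to FHD-286 differed between the lines, by the limma interaction of line and treatment, for 6 members. As log2 responses in H82 minus those in H146, the values were -1.80 for *GRIA4*, -1.45 for *GRM2*, -1.39 for *GRIK5*, -0.973 for *GRIA1*, -0.756 for *GRIN2D* and -0.606 for *GRM8*. The interaction over all 24374 genes had a median of -0.75 and was called lower for 46.0% of them. With quantile normalization the difference passed for *GRIA4* and for none of the other 5, and it then passed with the higher value in H82 for *GRIA2* and *GRIN1*. In treated H146, the 1 group of more than 3 libraries, none of the 10 members had a library far from the others by Dixon's criterion at 95%. This criterion looks for 1 library apart and does not address libraries that split into pairs, as described below.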

How the results depend on the processing

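Of 350 values of single members under alternatives, 293 kept direction and side of the threshold, 25 lost a call, 8 gained one and 24 changed sign. *GRIA4* and *GRM8* in H146, *GRIK5* in H82 and the interaction of *GRIA4* kept their calls under all alternatives run, and *GRM2* in H82 wherever it was tested.
With the median of ratios, members lower became 2 in H82, 3 in H146 and 3 for the interaction, genes higher 4793 in H82 and 6216 for the interaction, and genes in H146 4917 lower and 4165 higher; *GRIN1* in H82 turned to 0.20, *GRIA2* in H146 to -0.20, and the interactions of *GRIN1* to 0.63 and *GRIK2* to 0.15. With quantile normalization, members lower became 2 in H82, 3 in H146 and 1 for the interaction, with 2 higher in the latter (*GRIA2* and *GRIN1*). Over all genes, 5551 were then lower and 5070 higher in H82, 4103 and 4648 in H146, and 6261 and 6142 for the interaction. Under this setting *GRIA1* (0.39) and *GRIN1* (0.63) in H82, *GRIA2* in H146 (-0.050) and the interactions of *GRIA1* (0.15), *GRIN1* (1.06), *GRIN2D* (0.19), *GRIK2* (0.78) and *GRM8* (0.014) turned. With a pseudocount of 0.1 the interaction of *GRM8* turned to 0.17, and *GRIA1* in H146 differed by 1.71 (exact permutation test, p = 0.0286). The cause was not tested.
Leaving out 1 library gave 2 to 3 members lower in H82 (4291 to 9957 genes lower, 1676 to 3503 higher) and 0 to 1 lower in H146 (1812 to 3729 genes lower). For the interaction, 4 to 6 members were lower (8620 to 11570 genes lower). The lowest H82 counts came without an untreated library. Across these fits *GRIA2* (-0.061 to 0.24) and *GRIN2D* (-0.13 to 0.038) in H146 and the interactions of *GRIA2* (-0.16 to 0.38) and *GRIN1* (-0.39 to 0.12) changed sign.
Same-numbered libraries did not deviate together (correlations 0.03, 0.01 and -0.04 in H82, -0.11, -0.06 and 0.01 in H146). No pairing by number was seen, but deviations within groups this small cannot exclude one. With the number as a block, *GRIA1* in H82 and the interaction of *GRM8* lost their calls, the other calls of members stayed, and *GRIN2D* in H146 turned to 0.036.
Depth is unknown from TPM, and members near or below 1 TPM rest on an unknown number of reads.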

Other observations

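The 4 treated H146 libraries fell into pairs for most members. Replicates 1 and 2 both lay above replicates 3 and 4 for 5 members and both below them for 4, with *GRIN1* the exception. Among all 19585 genes tested in H146 the same held for 66.6%. Replicates 1 and 2 were higher for *GRIA1*, *GRIA2*, *GRIA4*, *GRIK5* and *GRIN2D* and lower for *GRIK2*, *GRIN3A*, *GRM2* and *GRM8*. For *GRIK2* the pairs measured 1.13 and 1.23 against 2.36 and 2.82 TPM, a wider gap than that between the group means of 2.21 ± 0.398 TPM (SD, n = 3) untreated and 1.88 ± 0.837 TPM (SD, n = 4) treated. *DLG4* showed the same split, with 55.3 and 67.6 against 24.0 and 20.6 TPM. The mitochondrial share of TPM was 11.4% and 7.09% in replicates 1 and 2 and 6.45% and 3.82% in replicates 3 and 4, and its part in the split was not tested. The labels name no batch for these libraries, and the pairs were seen in the data, so they are no groups of the study and were not tested.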
